A study of Mus musculus with 12 samples.

Results

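The genes described are 10 mouse genes of apoptotic cell engulfment: the receptors Mertk, Axl, Lrp1 and Trem2, the bridging and opsonising proteins Gas6, Mfge8, Anxa1 and Tgm2, and the internalisation genes Elmo1 and Dock1. They were chosen by name from a table of 43430 genes, through the Ensembl gene identifiers that carry these symbols. No measured value was part of the rule, but earlier results of these data were known when the genes were chosen. All 10 are in the table. Of these, 9 passed the filter on low values, which asked for 4 or more libraries with 1 RPKM or more, and Gas6 did not. An RPKM value is a read number divided by the gene's length and by the library total.

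Polyadenylated RNA of alveolar macrophages was sequenced in a murine lung transplant model, with 4 libraries from naive mice, 4 from lungs at 2 h after reperfusion (when blood flow through the graft is restored) and 4 at 24 h. Every library carries the same labels for genotype (Cx3cr1gfp/+ on B6, a green fluorescent protein reporter in 1 copy of the fractalkine receptor gene), sex (male) and age (14 weeks). Both reperfusion groups have Allo in their titles, a word left unexplained there, and whether the cells came from the donor or the recipient is not given in the sources used here. No label ties a library to its own animal, so p-values reflect differences among libraries that may be purely technical.

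Dying cells expose phosphatidylserine on their outer membrane, and macrophages read it either directly or through soluble proteins that bind phosphatidylserine on one side and a receptor on the other. The receptor tyrosine kinases Mertk and Axl are engaged through Gas6, and Mertk also through protein S. Mfge8 links phosphatidylserine to integrins of the alpha v family, Tgm2 acts as a partner of such integrins, and Elmo1 with Dock1 forms the exchange factor that activates Rac1 so that the membrane closes around the corpse. Alveolar macrophages are known for clearing dying cells and surfactant from the air spaces.

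Across the series, library totals read from the steps of the RPKM values ranged from 6112586 to 11997945 reads. All 12 alveolar macrophage markers examined passed the filter, and their summed level was 11342 to 11731 RPKM in naive, 7837 to 9043 RPKM at 2 h and 9580 to 11346 RPKM at 24 h, a sum made mostly of Chil3 in every group. Single markers went both ways: at 24 h 3 of the 12 were higher than in naive, among them Marco (94.9 to 398 RPKM), and 7 were lower, among them Siglecf (58.3 to 27.1 RPKM). The summed levels of markers of other cells were far lower, and some of these sums differed between the groups. Single markers were not always lower: in naive Epcam (42.5 RPKM) was above the alveolar macrophage marker Fabp4 (12.0 RPKM). At 2 h Nr4a1 (52.7 RPKM) was above Siglecf (44.3 RPKM). The summed level of 8 lymphocyte markers was 11.4 to 17.7 RPKM in naive, 2.71 to 8.05 at 2 h and 1.27 to 3.86 at 24 h, and that of 9 interstitial macrophage markers 6.55 to 10.9, 3.15 to 5.40 and 3.58 to 8.98 RPKM. The summed level of 8 neutrophil markers was 15.5 to 21.8, 15.1 to 23.7 and 32.1 to 38.8 RPKM, but only S100a8 of the 3 tested was higher at 24 h than in naive. Csf3r was lower (6.51 to 2.01 RPKM, adjusted p = 3.99e-05), Cxcr2 did not pass, and Ly6g, Mpo and Camp had at most 2 reads in any library. That of 7 epithelial markers was 66.3 to 71.1, 59.2 to 77.2 and 33.0 to 40.2 RPKM, where Epcam was lower at 24 h than in naive (42.5 to 12.2 RPKM) and the other 3 tested did not pass. That of 7 monocyte markers was 10.4 to 15.9, 13.5 to 109 and 4.63 to 8.28 RPKM, led by the immediate early gene Nr4a1, which was higher at 2 h (adjusted p = 0.019), while Ccr2 was lower (1.41 to 0.595 RPKM, adjusted p = 0.000924). H2-Ea-ps, the class II E alpha gene that B6 mice do not transcribe, had 0 to 0.184 RPKM in naive, 19.3 to 27.1 RPKM at 2 h and 1.48 to 5.20 RPKM at 24 h. Every reperfusion library holds such reads, although every library is labelled B6, and which cells gave these reads was not tested. This difference and the time after reperfusion cannot be told apart. Whether the comparisons with naive below lie within 1 strain was not tested. The part of these other cells and of H2-Ea-ps in the values below was not tested.

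The promoters of the 5 members whose 24 h change against naive was kept in every setting in which they were tested are shown, because these are the genes on which the 24 h comparison turns: Mertk, Axl and Lrp1, which were lower at 24 h, and Mfge8 and Trem2, which were higher. The sequences are RefSeq's for GRCm38.p6, 250 bases before to 50 bases after the annotated start, written 5′ to 3′ on the strand of the gene. Capitals mark the GC box GGGCGG, also as CCGCCC on the other strand, and in Trem2 the nuclear receptor half-site AGGTCA, here as TGACCT. The windows are chr2:128698665-128698964 (+) for Mertk, chr7:25788684-25788983 (-) for Axl, chr10:127621099-127621398 (-) for Lrp1, chr7:79149011-79149310 (-) for Mfge8 and chr17:48346151-48346450 (+) for Trem2.
Mertk: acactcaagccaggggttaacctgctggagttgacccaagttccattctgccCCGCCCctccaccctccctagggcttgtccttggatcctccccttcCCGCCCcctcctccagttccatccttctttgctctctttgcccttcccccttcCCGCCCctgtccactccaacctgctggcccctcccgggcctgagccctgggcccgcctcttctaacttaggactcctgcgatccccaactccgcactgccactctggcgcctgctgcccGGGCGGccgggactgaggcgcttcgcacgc
Axl: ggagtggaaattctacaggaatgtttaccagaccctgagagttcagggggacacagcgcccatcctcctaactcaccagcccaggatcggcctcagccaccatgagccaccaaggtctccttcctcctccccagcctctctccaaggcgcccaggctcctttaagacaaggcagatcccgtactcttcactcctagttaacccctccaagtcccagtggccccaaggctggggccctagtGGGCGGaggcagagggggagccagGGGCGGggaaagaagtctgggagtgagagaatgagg
Lrp1: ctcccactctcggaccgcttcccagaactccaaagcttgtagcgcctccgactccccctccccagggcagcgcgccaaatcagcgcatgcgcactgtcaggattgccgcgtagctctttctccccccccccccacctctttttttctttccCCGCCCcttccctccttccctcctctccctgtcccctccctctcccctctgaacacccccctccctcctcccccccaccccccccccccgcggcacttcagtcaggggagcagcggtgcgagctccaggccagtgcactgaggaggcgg
Mfge8: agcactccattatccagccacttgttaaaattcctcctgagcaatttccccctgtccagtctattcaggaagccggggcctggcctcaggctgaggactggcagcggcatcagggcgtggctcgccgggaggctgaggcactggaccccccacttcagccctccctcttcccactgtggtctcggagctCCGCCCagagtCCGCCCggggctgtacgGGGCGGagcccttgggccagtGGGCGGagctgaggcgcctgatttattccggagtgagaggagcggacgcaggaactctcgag
Trem2: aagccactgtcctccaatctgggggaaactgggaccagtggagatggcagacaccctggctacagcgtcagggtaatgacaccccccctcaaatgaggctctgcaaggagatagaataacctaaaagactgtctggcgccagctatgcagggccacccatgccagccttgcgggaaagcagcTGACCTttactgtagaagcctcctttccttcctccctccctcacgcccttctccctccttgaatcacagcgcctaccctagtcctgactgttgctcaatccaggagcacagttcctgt

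Of the 10 genes, 9 matched an entry by symbol, and Tgm2 did not. The GC box was found in 7 of the 10 windows of these 9 genes, against 35.7% of all 32851 promoter windows. These 7 were windows of Mertk, Axl, Mfge8, Dock1, Gas6, Lrp1 and Elmo1. They had 58.3 to 70.7% G and C, beside a median of 52.7% over all windows. The GC box was found in promoters of genes that were higher and of genes that were lower at 24 h. The half-site AGGTCA was found in Trem2 among the 9 genes and in 16.3% of all windows, and the PU.1 motif GAGGAAGT in Elmo1 and in 3.20% of all windows. The TATA box TATAAA was found in Elmo1 and Anxa1 and in 13.6% of all windows. The AP-1 motif TGACTCA (5.20% of all windows) and the E-box CACGTG (7.15%) were in none of the 9 genes. Both strands were searched, no window printed holds more than 1 of these motifs, and a match describes letters only.

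On the scale of the authors' RPKM, in naive libraries Axl was highest at 161 ± 3.04 RPKM (SD, n = 4), followed by Anxa1 at 155 ± 5.39 and Lrp1 at 152 ± 9.43, and the ranges of neighbours among these 3 overlapped. Tgm2, at 94.7 ± 6.01 RPKM, and Mertk, at 77.5 ± 3.44 RPKM, came next and their ranges were apart. Dock1 (9.81 ± 0.836 RPKM), Elmo1 (6.97 ± 0.415 RPKM), Trem2 (4.56 ± 0.318 RPKM), Mfge8 (1.64 ± 0.401 RPKM) and Gas6 followed in that order, each apart from its neighbour. At 2 h the ranges of Anxa1, Lrp1, Axl and Tgm2 overlapped from neighbour to neighbour, and at 24 h those of Anxa1, Axl, Tgm2 and Lrp1 and those of Elmo1 and Trem2 did. The order depends on gene length: the length implied by the authors' values was 2.69 times the exon union of the annotation for Axl and 0.73 times for Dock1. Rescaled to the exon union, Axl stood alone at the top in all 3 groups (434, 404 and 342 RPKM), and Trem2, at 11.4 RPKM, was above Dock1 and Elmo1 at 24 h. The ratio of a gene's RPKM between groups does not depend on its length, but the filter and, for low genes, the log2(RPKM + 1) scale do.

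**Figure D1:**
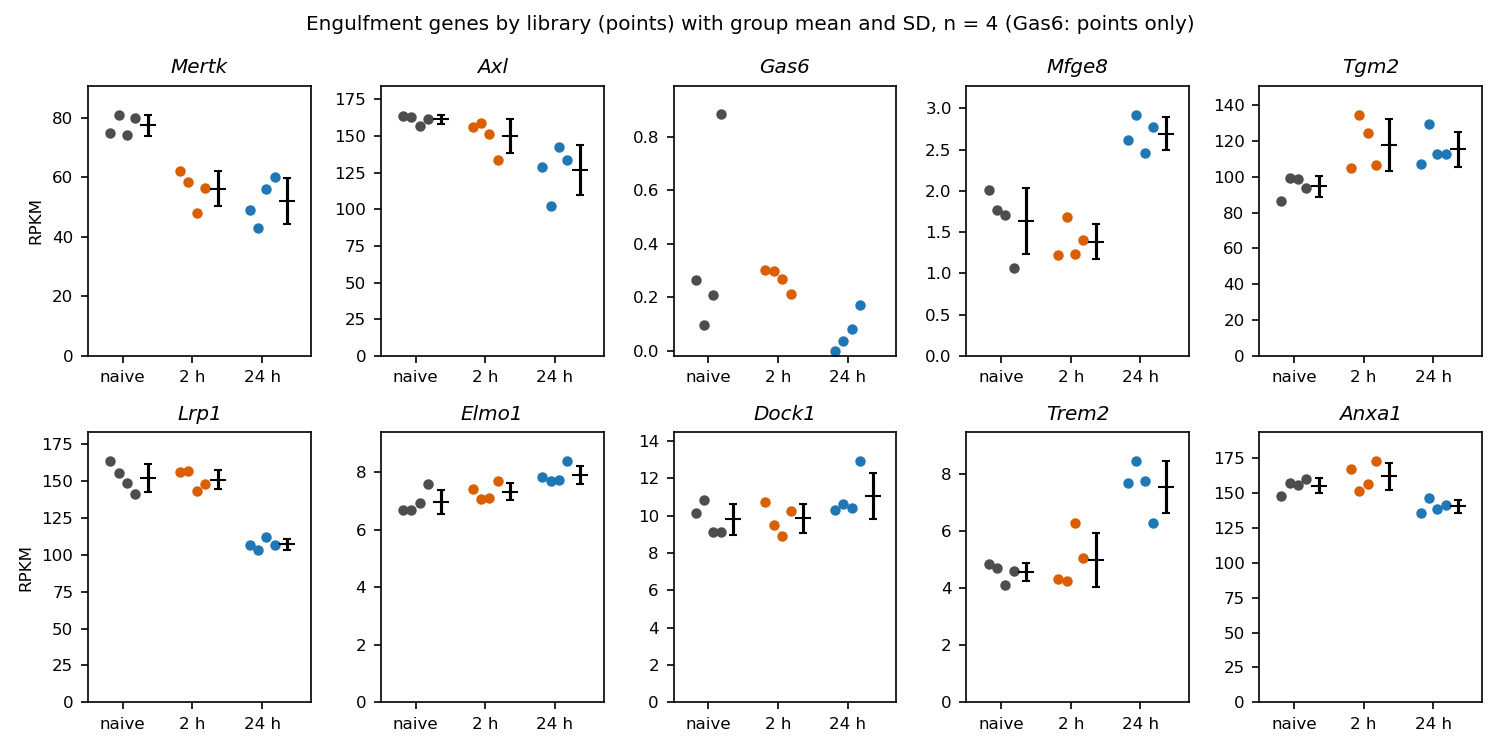
RPKM (vertical axis, linear) of each engulfment gene in the 4 naive, 4 2 h and 4 24 h libraries, one point per library, with the group mean and SD beside the points except for Gas6, which is shown as points only. Lrp1 is lower in all 4 libraries at 24 h than in any other library, and Mfge8 is higher in all 4.

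Against naive, 2 members differed at 2 h and 8 at 24 h. At 2 h Tgm2 was higher and Mertk lower, and 7 of the 9 tested did not pass, while 36.7% of all 11419 tested genes passed (14.7% higher, 22% lower). At 24 h Mfge8, Tgm2, Elmo1 and Trem2 were higher, Mertk, Axl, Lrp1 and Anxa1 were lower, and Dock1 did not pass. These 8 genes are also the members whose 24 h and naive libraries did not overlap, which comes from the same values and adds no support of its own. How many of all tested genes had no such overlap was not counted, so this is not read as a trait of the members. Over all tested genes 45.9% passed at 24 h (25.3% higher, 20.6% lower). Between 24 h and 2 h, Mfge8 and Trem2 were higher and Axl, Lrp1 and Anxa1 lower, and 4 did not pass, against 52.5% of all genes (30.9% higher, 21.5% lower). The median log2 fold change of the 9 tested members was 0.01, 0.16 and -0.02 in these comparisons, beside -0.04, 0.00 and 0.05 over all tested genes. The comparisons share groups, so they are not independent of each other. In these bulk libraries, fewer cells of a type and less RNA per cell cannot be told apart.

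**Figure D2:**
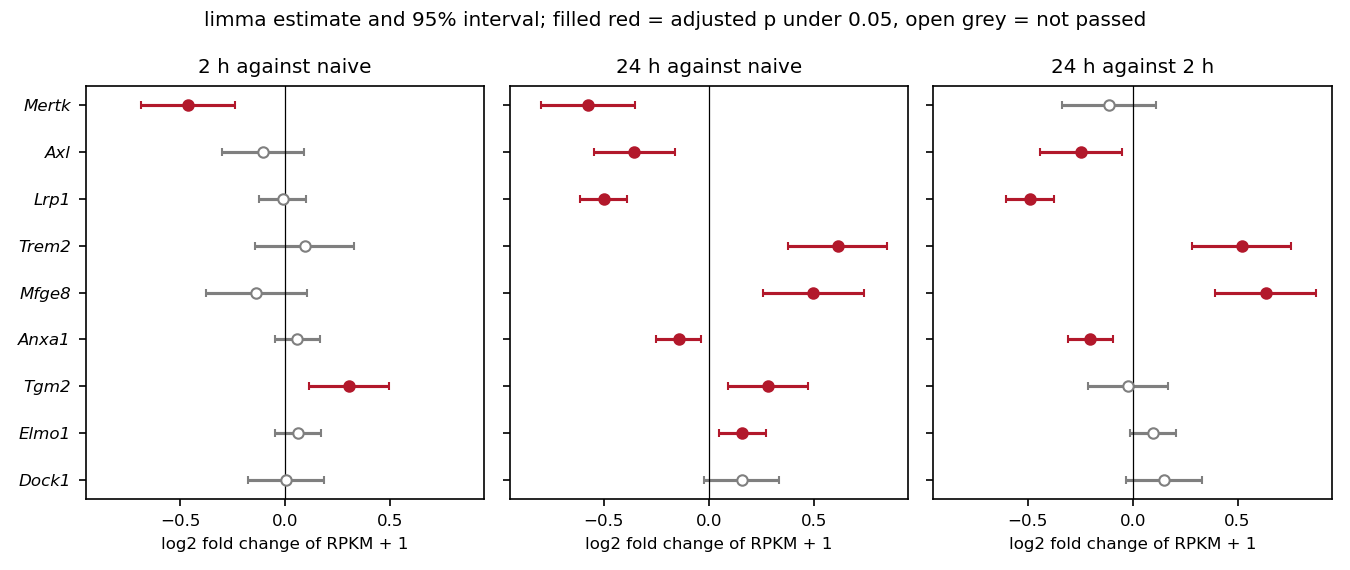
limma log2 fold change of RPKM + 1 (horizontal axis) with its 95% interval for the 9 tested engulfment genes in the 3 comparisons; filled red points passed an adjusted p of 0.05, open grey points did not. Mertk is lower against naive at both times, Lrp1 is near 0 at 2 h and at -0.50 at 24 h, and Trem2 and Mfge8 are higher at 24 h.

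Mertk (ENSMUSG00000014361, chromosome 2, 128698956 to 128802894, mm10, plus strand) encodes the TAM family kinase that macrophages use to take up apoptotic cells. It had 74.8, 81.0, 74.2 and 79.9 RPKM in the naive libraries, 62.0, 58.3, 48.0 and 56.4 RPKM at 2 h and 48.9, 43.0, 56.2 and 60.2 RPKM at 24 h. Every library of both reperfusion groups was below every naive library, and the 2 reperfusion groups overlapped. Mertk fell by 27.5% on average at 2 h (log2 fold change -0.46 ± 0.10, SE, limma adjusted p = 0.00469) and stood at 52.1 ± 7.69 RPKM (SD, n = 4) in the 24 h libraries (log2 fold change -0.58 ± 0.10, SE, adjusted p = 0.000717). Between 24 h and 2 h the difference did not pass (log2 fold change -0.11, 95% interval -0.34 to 0.11, adjusted p = 0.379).

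Axl (ENSMUSG00000002602, chromosome 7, 25757273 to 25788705, minus strand) encodes the TAM kinase that depends on Gas6 as its ligand. Its naive libraries lay close together at 164, 163, 157 and 162 RPKM, the 2 h libraries had 156, 159, 152 and 134 RPKM and the 24 h libraries 129, 103, 142 and 134 RPKM. In the 2 h group 3 of the 4 libraries were below every naive library, and in the 24 h group all 4 were. At 2 h the difference did not pass (log2 fold change -0.11, 95% interval -0.30 to 0.09, adjusted p = 0.376). At 24 h Axl was lower at 127 ± 17.1 RPKM (SD, n = 4), with a log2 fold change of -0.35 ± 0.09 (SE, adjusted p = 0.00661). Axl was also lower at 24 h than at 2 h, with overlapping groups (log2 fold change -0.25 ± 0.09, SE, adjusted p = 0.0347), and this call was lost in 9 of 23 other settings. Among these were the fits without 24 h replicate 2 (-0.15), without 2 h replicate 1, 2 or 3 (-0.23, -0.22 and -0.24) and without 24 h replicate 1 (-0.26), and those with no filter, with quantile normalisation, with these 2 groups alone and with replicate numbers as a block, in which the adjusted p was 0.0564 to 0.0782.

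The level of Mertk relative to Axl in the same library does not depend on the library total. The log2 ratio of RPKM + 1 was -1.12, -1.0, -1.07 and -1.01 in naive, -1.32, -1.43, -1.64 and -1.23 at 2 h and -1.38, -1.24, -1.32 and -1.14 at 24 h. All reperfusion libraries were below all naive libraries. The mean log2 ratio differed from naive by -0.36 at 2 h and by -0.22 at 24 h (2-sided exact permutation p = 0.0286 in both, the smallest that 4 against 4 libraries allow, adjusted p = 0.0429 over 3 comparisons). Both calls were lost without any 1 of the naive libraries, replicate 1, 2, 3 or 4 (exact permutation adjusted p = 0.0857 in each). The log2 differences were then -0.38 to -0.34 at 2 h and -0.24 to -0.20 at 24 h. The groups stayed apart in these fits, where the exact test has fewer splits to draw on. Both calls were kept without any 1 reperfusion library, but such a library enters only 1 of these 2 comparisons. The 2 reperfusion groups differed by 0.14 (exact permutation p = 0.286). A lower ratio shows unequal change of the 2 genes, not that Axl stayed the same.

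**Figure D3:**
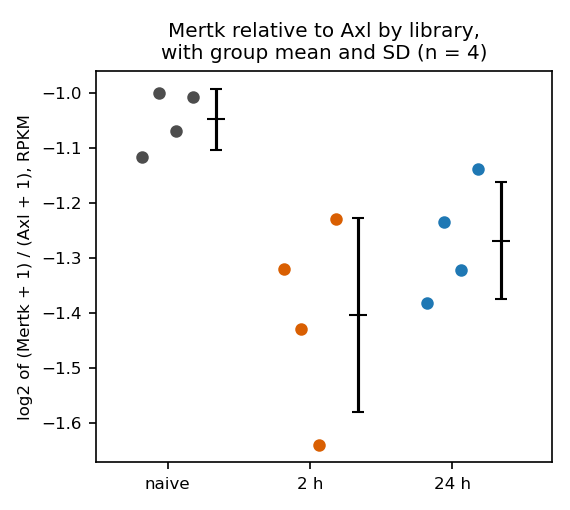
log2 of the ratio of Mertk to Axl (RPKM + 1, vertical axis, which does not start at 0) in each naive, 2 h and 24 h library, with group mean and SD (n = 4). The naive libraries lie between -1.12 and -1.0 and the reperfusion libraries between -1.64 and -1.14.

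Lrp1 (ENSMUSG00000040249, chromosome 10, 127538161 to 127621148, minus strand) encodes a large endocytic receptor that takes up cells marked by calreticulin. It had 163, 155, 149 and 141 RPKM in naive, 156, 156, 143 and 148 RPKM at 2 h and 107, 103, 112 and 107 RPKM at 24 h. The naive and 2 h ranges overlapped and the 24 h libraries were below all of them. At 2 h the fold change was -0.01 on the log2 scale (95% interval -0.12 to 0.10, adjusted p = 0.889). At 24 h Lrp1 fell by 29.6% against naive (log2 fold change -0.50 ± 0.05, SE, adjusted p = 1.23e-05) and by 29.0% against 2 h (log2 fold change -0.49 ± 0.05, SE, adjusted p = 1.02e-05). Both calls were kept in all 23 settings.

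Trem2 (ENSMUSG00000023992, chromosome 17, 48346401 to 48354147, plus strand) encodes a lipid-sensing receptor that signals through the adaptor Tyrobp. The naive libraries had 4.83, 4.70, 4.10 and 4.59 RPKM, the 2 h libraries 4.32, 4.25, 6.29 and 5.06 RPKM and the 24 h libraries 7.68, 8.44, 7.75 and 6.29 RPKM. All 4 libraries at 24 h were above all naive libraries and 3 were above all 2 h libraries. Trem2 was 1.65-fold higher at 24 h than in naive (log2 fold change 0.62 ± 0.11, SE, adjusted p = 0.000656) and 1.51-fold higher than at 2 h (log2 fold change 0.52 ± 0.11, SE, adjusted p = 0.00167). At 2 h the difference from naive was 0.09 on the log2 scale (95% interval -0.14 to 0.33, adjusted p = 0.523). Trem2 was thus the member receptor that rose, while the other 3 fell at 24 h.

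Among the soluble proteins, Gas6 (ENSMUSG00000031451, chromosome 8, 13465374 to 13494490, minus strand), the ligand of both TAM kinases, was near the limit of detection. The naive libraries held 6, 2, 4 and 14 reads, the 2 h libraries 8, 8, 6 and 4 reads and the 24 h libraries 0, 1, 2 and 4 reads, which sum to 26, 26 and 7. In 24 h replicate 1, with 0 reads, the limit that a count of 0 allows is 3 reads or 0.0965 RPKM, for counting error only. Without the filter the 24 h difference from naive did not pass (adjusted p = 0.146), and no fold is given at these counts. Its exons share 34 bases with Tmem255b on the opposite strand, and whether strand was used in counting is not given in the sources used here.

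Mfge8 (ENSMUSG00000030605, chromosome 7, 79133768 to 79149060, minus strand), the bridge to integrins, was also low but measurable, with 27 to 73 reads per library in naive, 42 to 72 at 2 h and 97 to 131 at 24 h. It had 2.01, 1.77, 1.71 and 1.07 RPKM in naive, 1.22, 1.68, 1.24 and 1.40 RPKM at 2 h and 2.62, 2.92, 2.46 and 2.78 RPKM at 24 h. The 24 h libraries were above all the others. Mfge8 was 1.65-fold higher at 24 h than in naive (log2 fold change 0.50 ± 0.11, SE, adjusted p = 0.00307) and 1.94-fold higher than at 2 h (log2 fold change 0.63 ± 0.11, SE, adjusted p = 0.000483). The folds are ratios of mean RPKM, and the log2 fold changes are on the log2(RPKM + 1) scale, which understates changes of low genes. At 2 h the difference from naive did not pass (log2 fold change -0.14, adjusted p = 0.36), and without naive replicate 4, the lowest of its group, it passed as lower (-0.25, adjusted p = 0.0429).

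Anxa1 (ENSMUSG00000024659, chromosome 19, 20373428 to 20390944, minus strand), a phosphatidylserine-binding annexin that also acts on formyl peptide receptors, changed little in size. It had 148, 157, 156 and 160 RPKM in naive, 167, 151, 156 and 172 RPKM at 2 h and 135, 146, 138 and 141 RPKM at 24 h. The 24 h libraries were below all others, and the naive and 2 h libraries overlapped. Anxa1 fell by 13.2% from 2 h to 24 h (log2 fold change -0.20 ± 0.05, SE, adjusted p = 0.00472), which every setting kept. Against naive it fell by 9.50% at 24 h (log2 fold change -0.14 ± 0.05, SE, adjusted p = 0.0328), and this call was lost in 8 of 23 settings. These were the fits with no filter, with no variance trend, without naive replicate 2, 3 or 4 and without 24 h replicate 1, 3 or 4, with log2 fold changes of -0.15 to -0.13 and adjusted p of 0.0504 to 0.0882. At 2 h the difference did not pass (log2 fold change 0.06, adjusted p = 0.376).

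Tgm2 (ENSMUSG00000037820, chromosome 2, 158116402 to 158146436, minus strand), a protein-crosslinking enzyme, was the only tested member called higher at 2 h. It had 86.6, 99.6, 98.9 and 93.8 RPKM in naive, 105, 135, 125 and 107 RPKM at 2 h and 107, 129, 113 and 113 RPKM at 24 h. Every reperfusion library was above every naive library. Tgm2 was 1.24-fold higher at 2 h (log2 fold change 0.30 ± 0.09, SE, adjusted p = 0.0176) and 1.22-fold higher at 24 h (log2 fold change 0.28 ± 0.09, SE, adjusted p = 0.0202), and the 2 times differed by -0.02 (95% interval -0.21 to 0.17). Without naive replicate 1, the lowest of its group, neither call was kept (0.26 and 0.24), nor was the 2 h call without 2 h replicate 2 (0.24) or the 24 h call without 24 h replicate 2 (0.23). Its exons overlap Rprd1b by 370 bases and Gm20412 by 633 bases on the opposite strand. How reads in the shared bases were counted is not given in the sources used here. Whether reads of these genes are among its own, or reads of its own were left out, is therefore not known.

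Of the internalisation pair, Elmo1 (ENSMUSG00000041112, chromosome 13, 20090596 to 20608353, plus strand), the adaptor, had 6.68, 6.69, 6.94 and 7.57 RPKM in naive, 7.42, 7.06, 7.11 and 7.68 RPKM at 2 h and 7.82, 7.68, 7.71 and 8.36 RPKM at 24 h. The 24 h libraries were above all others, by a small margin. Elmo1 was 1.13-fold higher at 24 h than in naive (log2 fold change 0.16 ± 0.05, SE, adjusted p = 0.0232). This call was lost in 5 of 23 settings, namely quantile normalisation (0.12) and the fits without naive replicate 1, 2 or 3 (0.14, 0.14 and 0.16) or 24 h replicate 4 (0.13). Neither the difference at 2 h from naive (0.06, adjusted p = 0.364) nor that of 24 h from 2 h (0.10, adjusted p = 0.13) passed. The antisense gene Gm32036 overlaps 403 bases of its exons.

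Dock1 (ENSMUSG00000058325, chromosome 7, 134670654 to 135173639, plus strand), the exchange factor that Elmo1 binds, had 10.1, 10.8, 9.15 and 9.11 RPKM in naive, 10.7, 9.53, 8.92 and 10.2 RPKM at 2 h and 10.3, 10.6, 10.4 and 12.9 RPKM at 24 h. The 3 groups overlapped, and 24 h replicate 4 stood above the rest. No comparison passed, with log2 fold changes of 0.01 at 2 h (95% interval -0.17 to 0.19, adjusted p = 0.959) and 0.16 at 24 h (95% interval -0.02 to 0.34, adjusted p = 0.144) against naive. Between 24 h and 2 h the log2 fold change was 0.15 (95% interval -0.03 to 0.33, adjusted p = 0.148).

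The tested genes whose profile over the 12 libraries was most like that of each member were found by the root mean square difference of mean-centred log2(RPKM + 1), among 5899 protein-coding genes. For Mertk these were Selenop (0.08) and Tlr5 (0.09), where the spread of Mertk itself was 0.28. Selenop had 109, 80.2 and 75.1 RPKM on average in naive, at 2 h and at 24 h. For Lrp1 they were Pitpnm1 and Csnk1e (0.06 each, own spread 0.24), for Axl Unc119 and Tap2 (0.08 and 0.09, own spread 0.19), and for Trem2 Ruvbl2 and Psmc4 (0.10 each, own spread 0.31). For Mfge8 they were Nol7 and Dhcr7, for Anxa1 Slc30a7 and Pdcd6ip, for Elmo1 Morf4l1 and Rtraf and for Dock1 Cog7 and Vti1a. Those most like Tgm2 were Ctsl, a lysosomal protease of the digestion list below, and Rprd1b, its overlapping neighbour, which had 4.01, 4.75 and 5.07 RPKM on average in the 3 groups. These likenesses are descriptions over shared libraries.

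Around the members, 8 lists of other genes of apoptotic cell clearance were described, with 125 symbols, 103 of them tested. At 2 h 17 were higher and 29 lower than in naive, at 24 h 18 were higher and 34 lower, and between 24 h and 2 h 24 were higher and 29 lower, where 36.7%, 45.9% and 52.5% of all tested genes passed. Their median log2 fold change was -0.04, -0.04 and -0.02, beside -0.04, 0.00 and 0.05 over all tested genes.

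The lists closest to the members are the other ligands and receptors. Of 10 tested bridging and opsonin genes, 1 was higher and 6 were lower at 2 h, and 0 were higher and 7 lower at 24 h. Over all tested genes 22% were lower at 2 h and 20.6% at 24 h. The list had a median log2 fold change of -0.57 at 24 h beside 0.00 over all genes. Pros1, the protein S gene whose product engages Mertk, was 91.4 ± 2.62 RPKM in naive, 69.6 ± 5.68 at 2 h and 45.2 ± 2.88 at 24 h (SD, n = 4), with no overlap between any 2 groups (24 h against naive, log2 fold change -1.0, adjusted p = 2.2e-07). Pros1, like Mertk, was lower than naive at both times, and unlike Gas6 it was far above the limit of detection. C1qa, a subunit of the opsonin C1q, was 3.49, 0.483 and 0.549 RPKM (24 h adjusted p = 1.15e-05), and C1qc 1.45, 0.234 and 0.250 RPKM (24 h adjusted p = 0.000362). These values rest on few reads per library. C1qa had 22 to 36 in naive, 3 to 6 at 2 h and 3 to 8 at 24 h, and C1qc 20 to 31, 0 to 7 and 0 to 10. Both are also markers of interstitial macrophages, whose summed level is given above, and the part of such cells was not tested. Apoe, an apolipoprotein that Trem2 binds, was 11.5, 15.5 and 4.31 RPKM, lower at 24 h against 2 h (log2 fold change -1.70, adjusted p = 3.74e-05).

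Of 12 tested other uptake receptors, 4 were higher and 3 lower at 2 h, 2 higher and 4 lower at 24 h, and between the 2 times 6 were higher and 6 lower, beside 36.7%, 45.9% and 52.5% of all tested genes in either direction. Scarb1, a scavenger receptor that binds phosphatidylserine, was 12.0, 12.5 and 20.9 RPKM (24 h against naive, log2 fold change 0.75, adjusted p = 7.43e-06), and Msr1, the class A scavenger receptor, was 3.06, 7.23 and 10.3 RPKM (24 h, 1.44, adjusted p = 1.73e-05). Cd14 was 113, 180 and 43.0 RPKM, lower at 24 h than at 2 h (-1.96, adjusted p = 3.92e-05). Olr1, an oxidised lipoprotein receptor, was lower at 2 h (82.5 to 55.1 RPKM, adjusted p = 8.2e-05), and Cd300a, an inhibitory phosphatidylserine receptor, was higher (3.58 to 5.38 RPKM, adjusted p = 0.000523). Tyro3, the TAM kinase beside Mertk and Axl, did not pass the filter, with at most 6 reads in a naive library.

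Of 10 tested partners of Trem2 and the annexins, 2 were higher and 3 lower at 2 h, and 0 were higher and 5 lower at 24 h, beside 36.7% and 45.9% of all tested genes in either direction. Trem1, the relative of Trem2 known for amplifying inflammation, was 13.7, 43.2 and 11.9 RPKM on average, higher at 2 h (log2 fold change 1.55, adjusted p = 0.000338), whereas Trem2 was higher at 24 h. Syk, the kinase downstream of Tyrobp, was lower at 24 h (39.0 to 32.0 RPKM, adjusted p = 0.000472). The formyl peptide receptor genes, whose products Anxa1 engages, were lower as well: Fpr1 was 280 RPKM on average in naive, 67.7 to 158 RPKM in the 2 h libraries (adjusted p = 0.000346) and 133 RPKM at 24 h, and Fpr2 was 106, 100.1 and 50.7 RPKM (24 h adjusted p = 0.000236).

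Of 19 tested internalisation genes, 1 was higher and 3 lower at 2 h, and 3 were higher and 3 lower at 24 h, beside 36.7% and 45.9% of all tested genes in either direction. Rac1, the GTPase that the pair of Elmo1 and Dock1 activates, was 114, 107 and 122 RPKM, higher at 24 h than at 2 h (log2 fold change 0.19, adjusted p = 0.000536). Dock5, a relative of Dock1, was 21.0, 18.3 and 17.1 RPKM and lower at 24 h than in naive (-0.28, adjusted p = 0.00419). Abca1, a lipid exporter linked to engulfment, was 30.7, 38.6 and 9.08 RPKM (24 h against naive, -1.67, adjusted p = 2.22e-06). Elmo2 and Crkl were lower at 2 h (-0.17 and -0.18, adjusted p = 0.0224 and 0.0273), and both calls were lost under median-ratio scaling and without naive replicate 1 or 3 or 2 h replicate 1, that of Crkl also without naive replicate 2 or 2 h replicate 4.

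Of 19 tested corpse digestion genes, 4 were higher and 6 lower at 2 h, and 7 were higher and 2 lower at 24 h, beside 36.7% and 45.9% of all tested genes in either direction. Ctsd, a lysosomal protease, was 1318 RPKM in naive and 1763 RPKM at 24 h (adjusted p = 0.000187), Atg5, of the LC3 conjugation machinery, was 32.0, 28.7 and 37.7 RPKM, and Dnase2a, the lysosomal DNase, was 16.5, 14.0 and 19.6 RPKM. Atg5 and Dnase2a were lower at 2 h (adjusted p = 0.0187 and 0.00955) and higher at 24 h (adjusted p = 0.00128 and 0.00452) against naive. Slc2a1, a glucose transporter, was higher at 2 h (3.77 to 12.0 RPKM, adjusted p = 0.000662) and Mon1a, which acts in phagosome maturation, was lower (5.45 to 4.25 RPKM, adjusted p = 0.00182).

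Of 13 tested regulators, 1 was higher and 3 lower at 2 h, and 2 were higher and 6 lower at 24 h, beside 36.7% and 45.9% of all tested genes in either direction. Pparg, a nuclear receptor known to support engulfment genes in macrophages, was 66.8, 46.6 and 54.2 RPKM, lower at 2 h (adjusted p = 0.00012) and at 24 h (adjusted p = 0.00193). Nr1h3, which encodes LXR alpha, known to drive Mertk, was 4.89, 3.37 and 4.91 RPKM, lower at 2 h (adjusted p = 0.0029), and Nr1h2, which encodes LXR beta, was 6.21, 6.66 and 4.95 RPKM, lower at 24 h than at 2 h (adjusted p = 0.000419). Adam10, a protease that sheds surface receptors, was 27.0, 28.3 and 35.8 RPKM, higher at 24 h than in naive (adjusted p = 7.55e-05).

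Of 11 tested genes of phosphatidylserine exposure and the CD47 axis, 3 were higher and 3 lower at 2 h, and 2 were higher and 4 lower at 24 h, beside 36.7% and 45.9% of all tested genes in either direction. Sirpa, the receptor for the don't-eat-me signal CD47, was 84.9, 82.8 and 63.3 RPKM (24 h against naive, log2 fold change -0.42, adjusted p = 1.69e-05). Cd24a was higher at 2 h (56.3 to 92.3 RPKM, adjusted p = 0.00156), and so was Plscr3 (2.37 to 3.92 RPKM, adjusted p = 0.000204). Atp8a1, a phospholipid flippase, was lower at 24 h (3.67 to 3.0 RPKM, adjusted p = 0.021), a call lost without naive replicate 2 or 3 or 24 h replicate 3. Of 9 tested find-me signals and receptors, 1 was higher and 2 lower at 2 h, and 2 were higher and 3 lower at 24 h, beside 36.7% and 45.9% of all tested genes in either direction. The receptors S1pr2 and Gpr34 were lower at 2 h (10.1 to 5.15 RPKM and 1.91 to 0.756 RPKM, adjusted p = 0.0026 and 0.00237). Cx3cl1, the fractalkine gene, and S1pr1 were lower at 24 h (12.3 to 7.64 RPKM and 1.01 to 0.195 RPKM, adjusted p = 0.001 and 0.00206), whereas P2ry12 and Panx1 were higher at 24 h than at 2 h (3.74 to 5.79 RPKM and 2.25 to 3.43 RPKM, adjusted p = 9.8e-05 and 0.000484).

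**Figure D4:**
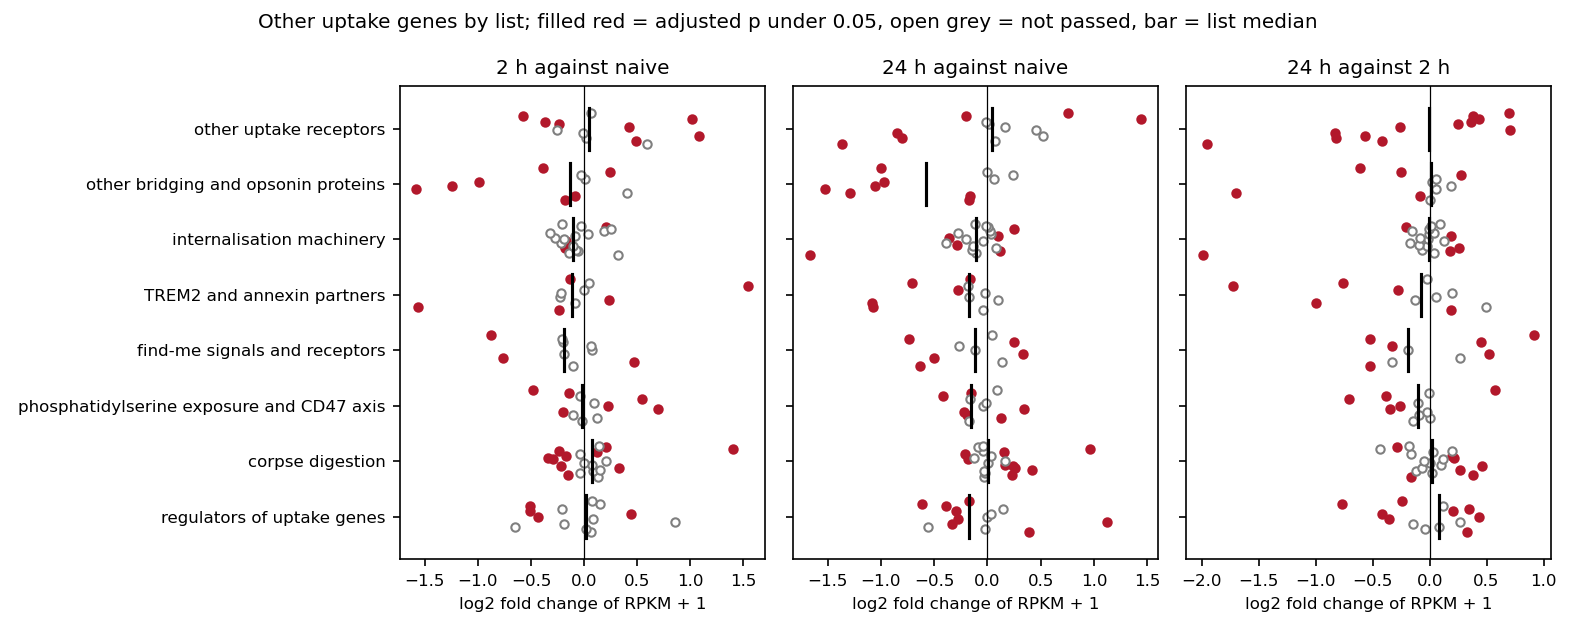
limma log2 fold change of RPKM + 1 (horizontal axis) of each tested gene in the 8 lists of other apoptotic cell clearance genes, by comparison; filled red points passed an adjusted p of 0.05, open grey points did not, and black bars are list medians. The bridging and opsonin list has its median at -0.57 for 24 h against naive.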

How the data were processed

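The authors deposited one table of RPKM values per Ensembl gene and library. The tools named in the submitters' processing notes are bcl2fastq, TopHat2 and HTSeq, and the build is mm10. Their versions, the annotation, the gene length used and any use of strand were not given in the sources used here. PicoPure RNA isolation and Illumina libraries of polyadenylated RNA were used, per the labels' protocols. Libraries were grouped by their time point label. The 10 members, the lists of other genes and the markers were chosen with earlier results of these data known.

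Positions and symbols are GENCODE's for GRCm38 (mm10). Genes with RPKM of at least 1 in at least 4 libraries (11419) were tested with limma 3.58.1 (R 4.3.3) on log2(RPKM + 1) over all 12 libraries in 3 groups, with a variance trend, 2-sided, Benjamini-Hochberg adjusted over all tested genes in each comparison, threshold 0.05. Whole reads were recovered from the RPKM steps for 11418 of 11419 tested genes, within 0.02 of a read, 98.8 to 99.0% of each total. Their depth limits precision for Gas6 and Mfge8 most. The ratio of Mertk to Axl was tested by exact permutation. Named genes are the 10 members, the 2 of each list with the smallest p in each comparison, and the 2 most like each tested member. The limma steps were also run on simulated reads for 24 h against naive, with a spread set in advance. They recovered 74.6%, 92.5% and 98.5% of genes changed 1.5-, 2- and 4-fold, with 4 false calls among 10945 genes tested. Changes under 1.5-fold, such as those of Axl, Tgm2, Elmo1 and Anxa1, were not simulated. The 23 alternatives changed the pseudocount, filter, scaling, variance model, samples fitted, replicate block or library set, or used voom on the recovered reads.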

Additional observations from a re-analysis of the deposited data

Results flagged for a closer look

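Single libraries stood apart from the other 3 of their group by more than Dixon's 95% critical value in 7 of 141 groups examined, where chance gives about 1 in 20. Among the members this was Dock1 in 24 h replicate 4, at 12.9 RPKM against 10.3 to 10.6 RPKM in the others. Among the other genes, the highest library was Cd300a in naive replicate 4 (4.30 RPKM), Trem1 in 24 h replicate 4 (15.3 RPKM) and S1pr1 in 2 h replicate 3 (1.11 RPKM). The lowest was Cx3cl1 in naive replicate 2 (12.0 RPKM), Sirpa in 24 h replicate 2 (59.1 RPKM) and Nr1h3 in 2 h replicate 1 (2.77 RPKM).

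The difference from naive was not the same at 24 h as at 2 h for 5 members, tested as 24 h against 2 h with limma over all genes. In that comparison 52.5% of all tested genes passed. On the log2 scale the difference from naive was lower at 24 h by -0.25 for Axl, -0.49 for Lrp1 and -0.20 for Anxa1. It was higher by 0.63 for Mfge8 and 0.52 for Trem2. That of Axl was lost in 9 of 23 settings.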

How the results depend on the processing

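Of 27 member fold changes, 17 kept their direction and side of the threshold in every one of the 23 settings. A filter at RPKM 5 left 2669 genes called at 2 h against naive (4189 before) and 3923 at 24 h against 2 h (5992 before), fewer genes being tested, and 1 member higher in the latter, since Mfge8 was not tested there. Leaving out single libraries gave 0 to 1 members higher and 1 to 2 lower at 2 h, 2 to 4 higher and 3 to 4 lower at 24 h, and 2 to 2 higher and 2 to 3 lower at 24 h against 2 h. Over all tested genes 3502 to 4529, 4595 to 5460 and 5430 to 5981 were called in these 3 comparisons. In the same fits the log2 ratio of Mertk to Axl differed from naive by -0.41 to -0.28 at 2 h and by -0.26 to -0.18 at 24 h (adjusted p = 0.0857 without any 1 naive library and 0.0429 without any 1 reperfusion library). Signs turned only among differences that did not pass. Lrp1 at 2 h was 0.041 under median-ratio scaling and -0.047 to 0.023 over the fits without 1 library, Dock1 at 2 h was -0.010 with equal totals and -0.032 to 0.052 over those fits, Trem2 at 2 h was -0.0051 to 0.15, and Tgm2 at 24 h against 2 h was -0.080 to 0.043. The cause was not tested.

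The correlation of deviations from the group means was -0.04 to 0.05 for same-numbered libraries and -0.13 to 0.08 for libraries of different numbers. Whether same-numbered libraries share an animal or a batch was not tested. With the replicate block 4020, 5107 and 5877 genes were called in the 3 comparisons, the members called were 1 higher and 1 lower, 4 and 4, and 2 and 2, and the log2 ratio differences of -0.36 and -0.22 had an adjusted p of 0.188, as 4 pairs cannot reach 0.05.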
